A study of Homo sapiens with 12 samples.

Results

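The list of sites occupied by dCas9 with sgRNA6 in HEK 293T cells held 33611 peaks, out of 58042 peaks in the 9 lists analysed. All rows of the sgRNA6 list were taken, with no filter. HEK 293T cells derive from human embryonic kidney and express the large T antigen of SV40. Cells received dCas9 and a guide by transfection and were harvested 3 days later, and chromatin sheared to a mean of 300 bp was pulled down by its HA tag, after which fragments of 300 to 650 bp were sequenced. The other lists came from the same line, antibody and protocol with sgRNA1, sgRNA2 and sgRNA3 (2 replicates each) and with sgRNA4 and sgRNA5 (1 library each). The labels share 1 protocol between dCas9 and wild-type Cas9, and the use of dCas9 for binding is taken from knowledge of the study. No source used here gives the sequence of sgRNA6 or its intended target.

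dCas9 is a catalytically inactive Cas9 that binds DNA without cutting it. A single guide RNA directs it to DNA that pairs with the guide and lies beside a short protospacer adjacent motif. Pairing starts in the seed next to that motif, and a match of the seed alone can hold dCas9 on DNA, so a binding map can list many more sites than active Cas9 cuts. Antibody pull-down also recovers accessible chromatin to some degree whatever the guide. The library with dCas9 and no guide was not analysed here, so the part of such background in the list was not tested.

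The sgRNA6 list came from 1 library. Its values carry no replicate error, and no test between conditions was possible. Intervals are exact binomial (Clopper-Pearson, or order-statistic intervals for medians) at 95% and cover counting error only. Read depth is unknown. The score is the value that the authors' peak caller gave each peak, and it was compared only within 1 list. Positions are hg19, counted from 1. Neither genes nor sequences at the peaks are given, since no genome or annotation of that build was used here.

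Most sgRNA6 peaks were found with this guide alone. Of the 33611 peaks, 24499 (72.9%, 95% interval 72.4 to 73.4) shared no base with a peak of the other 5 guides, and 9112 (27.1%, 26.6 to 27.6) shared at least 1 bp. Without the sgRNA4 list the shared part was 15.7%. These are called unshared and shared peaks below. The peaks covered 25.15 Mb, or 0.828% of the length mapped by the lists. Unshared peaks made up 16.4 Mb of this and shared peaks 8.71 Mb. Where a peak was shared, the other guides covered most of it: the median share of its bases under another guide's peak was 81.0%, and 177 shared peaks were covered over less than 10% of their bases. The other lists held between 41 and 13660 peaks, and the part of their differing depth in the unshared share was not tested.

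Most shared peaks were found with sgRNA4 or sgRNA5, the guides with the next longest lists. sgRNA4 peaks overlapped 6742 sgRNA6 peaks (20.1%), and sgRNA5 peaks 4778 (14.2%). With sgRNA4 and no other guide 3844 peaks were shared, with sgRNA5 alone 1903, and with exactly these 2 guides 1854. sgRNA1 reached 1001 sgRNA6 peaks (2.98%), sgRNA2 518 (1.54%) and sgRNA3 283 (0.842%). By number of other guides, 5965 peaks were shared with 1, 2307 with 2, 641 with 3, 175 with 4 and 24 with all 5.

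Taken as a share of the shorter lists, the overlap was larger. sgRNA6 peaks overlapped 48.3% of the sgRNA4 list (6599 of 13660) and 57.0% of the sgRNA5 list (4761 of 8346). With replicates merged, they overlapped 73.0% of 1339 sgRNA1 peaks, 80.2% of 612 sgRNA2 peaks and 67.5% of 406 sgRNA3 peaks. The replicates differed for sgRNA1 and sgRNA3. In replicate 2, 76.1% of 1278 sgRNA1 peaks and 70.9% of 382 sgRNA3 peaks overlapped a sgRNA6 peak. In replicate 1 the shares were 15.6% (15 of 96) and 14.6% (6 of 41), so the merged shares rest mostly on replicate 2. For sgRNA2 the shares were 81.9% in replicate 2 and 67.2% in replicate 1 (39 of 58).

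Peak scores were concentrated near the lower end of the list. The lowest score was 50, the median 90.0 (95% interval 89.0 to 90.8), the 95th percentile 366 and the highest 3160. A score under 100 was given to 18967 peaks (56.4%), a score of 500 or more to 815 (2.42%) and one of 1000 or more to 136 (0.405%). Many scores were repeated: the 33611 peaks held 13601 distinct values, and 25846 peaks (76.9%) shared their score with another peak. The most common value, 50.8, was held by 353 peaks and the next, 58.65, by 294. At the top, 5 peaks scored exactly 3100, with 3 distinct scores above them, so that the order among these 5 is not resolved. What the repeated value stands for is not known, so whether these 5 rank below the other 3 is not settled either.

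Shared peaks had higher scores than unshared peaks. The median was 130 (126.8 to 132.9) against 81.0 (80.2 to 81.8), a difference of 49.0, and the 95th percentile was 501 against 287. The median rose with the number of other guides, from 116 with 1 guide to 158 with 2, 185 with 3, 235 with 4 and 307 with all 5 (interval 227 to 735, 24 peaks). The order did not hold at the very top of the list. A score of 500 or more was given to 5.06% of shared and 1.45% of unshared peaks, but one of 2000 or more to 5 shared peaks (0.0549%) and 23 unshared peaks (0.0939%).

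**Figure D1:**
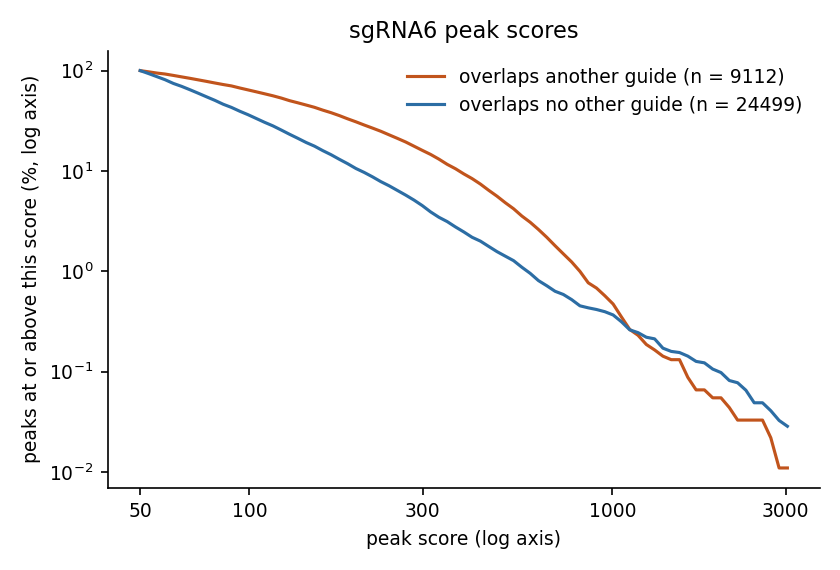
Share of sgRNA6 peaks (vertical axis, percent, log scale) at or above each score (horizontal axis, log scale), for the 9112 peaks that overlap another guide and the 24499 that do not. The shared curve lies above the unshared one over most scores (medians 130 and 81.0), and the curves cross between scores of 1000 and 1500.

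The share of peaks found with another guide therefore rose with the score over most of the list and fell only among the highest 100 peaks. In the lowest decile of the list 13.9% were shared (466 of 3361, 95% interval 12.7 to 15.1), in the fifth 25.7%, in the second 44.2% and in the highest 55.3%. In the highest 1% it was 51.8% (174 of 336, 46.3 to 57.2) and in the next 1% it was 58.0%. The planned classes were the deciles and the highest 1%, and the cuts by rank that follow came in addition. Within the highest decile, 60.6% of ranks 501 to 1000 (56.2 to 64.9) and 61.0% of ranks 101 to 500 (56.0 to 65.8) were shared. Among ranks 21 to 100 the share was 31.3% (25 of 80, 21.3 to 42.6) and among the highest 20 it was 15.0% (3 of 20, 3.21 to 37.9). These intervals cover counting error only, and no test between classes was run. The highest 20 count an X and a Y peak that may be the same site, as described below.

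**Figure D2:**
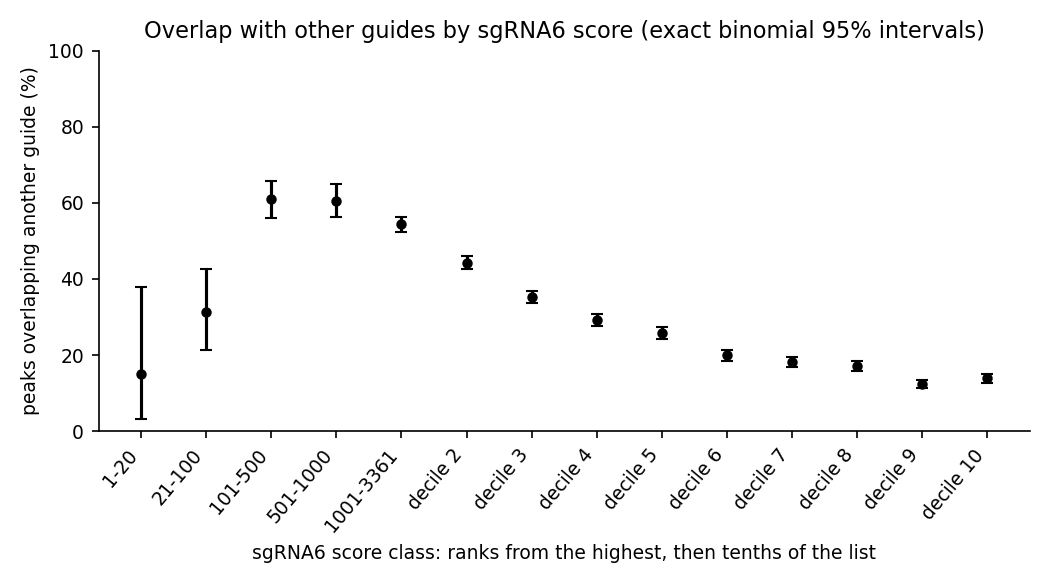
Share of sgRNA6 peaks that overlap a peak of another guide (vertical axis, percent) by score class (horizontal axis, ranks from the highest and then deciles of the list); points are shares and bars exact binomial 95% intervals. Among the classes drawn the share was highest, at 61.0%, in ranks 101 to 500. It was lower on both sides, with 15.0% in the highest 20 and 13.9% in the lowest decile. The highest 1%, which is not drawn, stood at 51.8%.

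The sgRNA4 and sgRNA5 lists were each set against their own other guides. The same shape was seen with sgRNA4, and with sgRNA5 it was not clear. With sgRNA4, 20% of the highest 20 peaks, 51.3% of ranks 21 to 100 and 68.5% of ranks 101 to 500 were shared, against 36.3% in the lowest decile. With sgRNA5 the corresponding shares were 80, 95, 89.8 and 50.5%. The first of these rests on 16 of 20 peaks (56.3 to 94.3), too few to show whether the share falls at the top. The lists differ in length and in what they were searched against, so differences between them were not tested.

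Of the 20 highest peaks of sgRNA6, 17 had no counterpart in the other lists. The first, chr14:103528706-103529484, scored 3160 over 779 bp, and the nearest peak of another guide was 3997 bp away. It was followed by chr7:101860671-101861600 (3128, 930 bp wide) and chr7:148313428-148314680 (3121, 1253 bp wide). Both were unshared, with the nearest other guide 1876 and 79079 bp away. The first was little wider than the list's median of 669 bp.

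The 5 peaks of score 3100 were chr15:101094140-101099182, chr4:699233-700925, chr7:136657087-136658677, chr2:242424226-242425607 and chr19:426062-427039. The chromosome 15 peak, 5043 bp wide, was the second widest of the list and the only one of the 5 that was shared. A sgRNA4 peak of score 56.0 (rank 11363) touched it, and 1.92% of its bases were covered. The chromosome 7 peak stood far from any other, with 369337 bp to the next sgRNA6 peak and 650776 bp to the next peak of another guide. Counting it, 7 of the 20 highest peaks had no peak of another guide within 50 kb.

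The next of the 20 highest lay at chr7:1070532-1071714 (score 3019), chr2:7628191-7629876 (2872), chr20:62062895-62064476 (2813) and chrY:1266090-1267549 (2762). Then came chr8:140812600-140813760 (2708), chr2:2840519-2842370 (2695), chr1:30435548-30436726 (2642) and chr7:157591771-157593172 (2447). The last 4 were chr3:195825600-195827198 (2438), chr16:1508968-1510389 (2370), chrX:1316082-1317525 (2357) and chr7:44415840-44416930 (2322). Of these 12, only the peaks on chromosome 20 and at 2840519 on chromosome 2 were shared, with sgRNA5 peaks of score 94.3 (rank 1683 of 8346) and 51.4 (rank 7910). The chromosome 2 peak at 7628191 was the most remote of the 20, with the next peak of another guide 927657 bp away.

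After the 20 highest, shared peaks remained the smaller part of ranks 21 to 100 (25 of 80). The fourth shared peak by score, chr7:149535024-149536451 (2143, rank 24), was found with 4 other guides, at scores of 204 (sgRNA4), 156 (sgRNA5), 79.5 (sgRNA2 replicate 2) and 68.0 (sgRNA1 replicate 2). The peak chr17:47072430-47074408 (2052, rank 25) was shared with 3 guides, with 215 in sgRNA4, 93.0 in sgRNA1 replicate 2 and 73.3 in sgRNA5. At chr10:3356015-3357568 the sgRNA6 peak (1797, rank 36) lay wholly under the third highest sgRNA5 peak (1734) and overlapped peaks in both sgRNA3 replicates. That sgRNA6 peak was the only one of the 10 highest shared peaks with a counterpart among the highest 100 peaks of the sgRNA4 or sgRNA5 list.

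The remaining 4 of the 10 highest shared peaks were chr6:170228463-170229936 (1663), chr17:18584512-18586290 (1662), chr1:33282189-33284198 (1596) and chr18:47807646-47808682 (1591). The chromosome 1 peak scored 413 with sgRNA4 (rank 135), 210 with sgRNA5 (rank 126) and 93.7 in sgRNA3 replicate 2. The other 3 had sgRNA4 scores of 86.1 to 124.

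Where peaks coincided, their scores were related to a small degree. Over the 6742 sgRNA6 peaks that overlap a sgRNA4 peak, Spearman's rho between the scores was 0.151, and over the 4778 that overlap a sgRNA5 peak it was 0.165. Both are descriptions across peaks of 2 libraries, which share the genome, the cell line and the caller. The centres of the peaks lay close together, with median distances of 175.5 bp to sgRNA4 and 156 bp to sgRNA5. Of the 145 sgRNA6 peaks in the highest 1% that overlapped sgRNA4, 44 fell in the highest 10% of the sgRNA4 list, and of the 134 that overlapped sgRNA5, 41 did so in that list. These shares were larger than lower in the sgRNA6 list, where the counts were 80 of 628 (sgRNA4) and 65 of 432 (sgRNA5) in the fifth decile and 40 of 348 and 12 of 182 in the lowest.

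The 24 sgRNA6 peaks found with all 5 other guides were not at the top of the list. The highest was chr10:46951170-46952112, with a score of 1072 (rank 107), and the next chr15:68132070-68133198, with 1065 (rank 109), which also headed the replicate 2 lists and the sgRNA5 list. Those on chromosome 17 at 19551064 to 19552663 and 19911392 to 19913702 scored 906 and 866, and chr1:144930545-144933159 scored 892. Further down were chr21:38639029-38640477 (839), chrX:153569528-153571959 (735) and, on chromosome 1, 93810876 to 93811857 (717), 113497867 to 113499316 (596) and 85741533 to 85742744 (560). Both chromosome 17 peaks were over 2 times as wide as the median peak, at 1600 and 2311 bp.

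Shared peaks were also wider. The median width was 851 bp (842 to 861) against 621 bp (618 to 625) for unshared peaks, a difference of 230 bp, which was 389 bp when sgRNA6 peaks within 1000 bp were merged. The median reached 1364.5 bp for the 24 peaks found with all other guides. Width and score moved together over the list (Spearman's rho 0.512 across 33611 peaks), more so among shared (0.614) than among unshared peaks (0.395). A wider peak has more bases on which to be overlapped, and the shared part rose from 6.93% in the narrowest decile (219 to 421 bp) to 63.5% in the widest (1173 bp and more).

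Within classes of 1 measure, shared peaks were mostly higher in the other. In the highest score decile shared peaks had a median width of 1256 bp and unshared peaks of 873 bp, and in the lowest 582 and 542 bp. In the widest decile the median score was 262 for shared and 178 for unshared peaks. In the 2 narrowest deciles, by contrast, shared peaks did not score higher: the medians were 67.5 and 68.0 from 421 to 497 bp, and 69.1 and 70.0 below that.

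Wide peaks were rare and mostly shared. Of 303 peaks of 2000 bp or more, 253 (83.5%) overlapped another guide. The widest, chr1:161418569-161425858, spanned 7290 bp with a score of 317 (rank 2271) and was covered completely by peaks of sgRNA1 replicate 2 (95.7), sgRNA4 (384) and sgRNA5 (132). Its neighbours chr1:161414300-161418514 (4215 bp, score 260) and chr1:161433364-161437766 (4403 bp, 255) were also among the 5 widest, so that 3 of these lay within 23.5 kb. The first of these neighbours was 99.4% covered by sgRNA4 and sgRNA5, and the other was unshared although a peak of another guide ended 64 bp away. The fifth, chr5:561537-565984 (4448 bp, 771), was unshared, and the chromosome 15 peak above completes the 5.

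Peaks lay close to each other. The median distance to the nearest other sgRNA6 peak, edge to edge, was 7331 bp (7125 to 7534). A neighbour within 1 kb was found for 7065 peaks (21.0%), within 10 kb for 18838 (56.0%) and within 100 kb for 91.8%. Joined at 10 kb, the list fell into 21065 groups, of which 14773 were single peaks and 106 held 10 or more (1328 peaks). The largest were chr17:79346262-79436535 and chr19:1232815-1291711, each with 23 peaks, of which 9 and 11 were shared. At 1 kb no group held more than the 6 peaks at chr7:5461382-5470187, within 8.81 kb.

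Shared peaks more often had a neighbour at very short range. Within 100 bp a neighbour was found for 8.80% of shared (8.23 to 9.40) and 3.45% of unshared peaks (3.22 to 3.68), and within 1 kb for 29.4 and 17.9%. The order turned at longer range, with 75.3% of shared and 76.4% of unshared peaks within 30270 bp, and at 100 kb the shares were 91.9 and 91.7%. The median distance was 6013.5 bp for shared and 7718 bp for unshared peaks, but this order is not stable. It turned to 2482 bp longer for shared peaks when sgRNA6 peaks within 1000 bp were merged, 2713 bp longer with the higher-scored 50% of each list, 255.5 bp longer with a 50% reciprocal overlap, and 1380 bp longer without the sgRNA4 list.

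**Figure D3:**
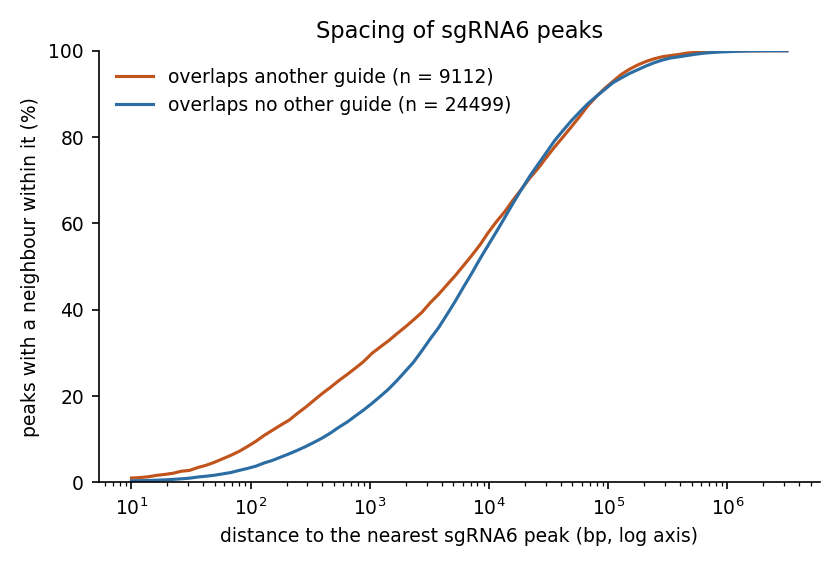
Cumulative share of sgRNA6 peaks (vertical axis, percent) with another sgRNA6 peak within a given edge-to-edge distance (horizontal axis, bp, log scale), for peaks that overlap another guide and those that do not. The shared curve is higher at short range (29.4 against 17.9% at 1 kb), lies slightly below the unshared one at intermediate distances (75.3 against 76.4% at 30270 bp), and is close to it at 100 kb (91.9 and 91.7%).

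Shared peaks tended to have a shared neighbour at short range. Where the nearest sgRNA6 peak lay within 1 kb, it was itself shared for 59.3% of shared peaks (57.4 to 61.2) and 25.4% of unshared peaks (24.1 to 26.7). Beyond 1 kb the shares were 30.8 and 22.8%. Over the whole list 27.1% of peaks were shared, so the value for unshared peaks within 1 kb lay near that of the list. A peak of another guide lay near many unshared peaks: it was within 1 kb of 2325 (9.49%) and within 10 kb of 8955 (36.6%), with a median distance of 18.9 kb.

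Shared and unshared peaks were spread over the chromosomes in much the same way. The list held 11.1 peaks per Mb, measured from the first position to the last listed peak of each chromosome. On this measure density ranged 8.44-fold over the 23 chromosomes other than Y, from 4.55 per Mb on chromosome 13 to 38.5 on chromosome 19. Stretches without assembled sequence were not taken out of the length, and their part in the order of the chromosomes was not tested. Chromosome 19, the human chromosome richest in genes, held 3.73 times its share of shared and 3.38 times its share of unshared peaks. That order turned in the higher-scored 50% of the list (3.25 and 3.48). On chromosome 17 the ratios in the whole list were 3.18 and 2.78 and on chromosome 22 they were 2.16 and 2.43. The gene-poor chromosomes 4 and 13 lay between 0.406 and 0.480. Across these 23 chromosomes shared and unshared density had a Spearman's rho of 0.955, as a description, since the chromosomes share their gene and repeat content between both sets.

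Some chromosomes departed from this. On chromosome 20, shared peaks stood at 1.09 and unshared at 1.65 times their share, and only 19.7% of its 1045 peaks were shared (17.3 to 22.3). Chromosome 18 was as low, with 19.3% of 409 (15.6 to 23.5), and held 0.338 times its share of shared and 0.525 times its share of unshared peaks. The highest part shared was on chromosome 6, with 31.8% of 1539 (29.5 to 34.2). Median scores were nearly level over the 23 chromosomes, from 82.8 on chromosome 21 to 94.2 on chromosome 4.

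**Figure D4:**
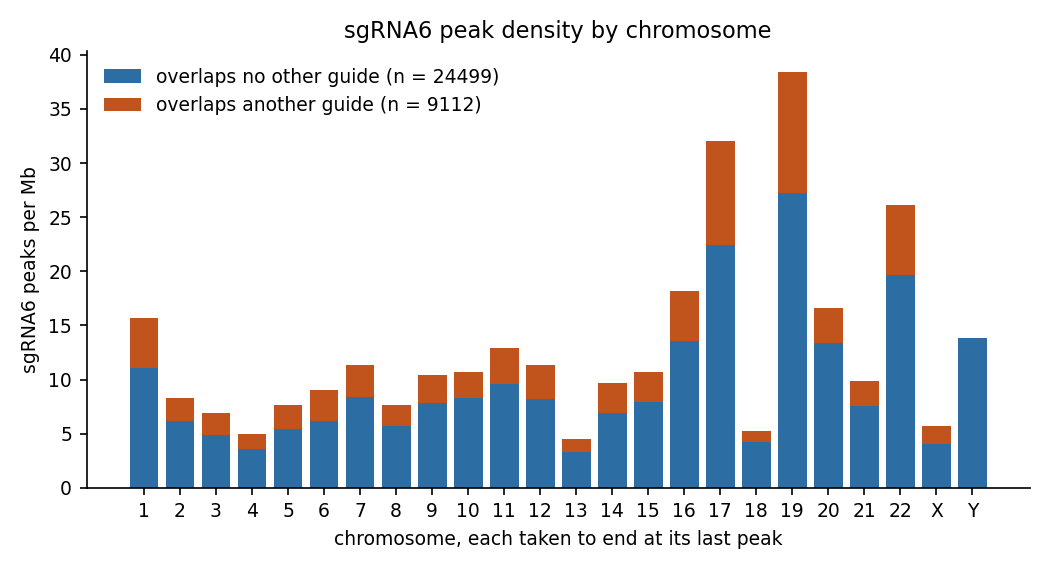
sgRNA6 peaks per Mb (vertical axis) on each chromosome (horizontal axis), with stacked bars for unshared (lower) and shared (upper) peaks. Length runs from the first position to the last listed peak, unassembled stretches included. Chromosomes 19, 17 and 22 stand highest (38.5, 32.0 and 26.1 per Mb) and chromosomes 13 and 4 lowest (4.55 and 5.00).

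At a scale of 1 Mb the list was uneven. Of 3051 windows 450 held no sgRNA6 peak, the median was 5 peaks, and 361 windows (11.8%) held 50% of all peaks. The most peaks were found at chr19:1000001-2000000 (136, of which 49 shared), chr17:79000001-80000000 (124, 42 shared), chr9:139000001-140000000 (112, 29 shared), chr20:61000001-62000000 (103, 18 shared) and chr1:1000001-2000000 (102, 28 shared). These 5 windows all lay in the outermost 3 Mb of their chromosomes. Over the 2687 windows with a peak of any guide, the number of unshared sgRNA6 peaks and the number of peaks of other guides had a Spearman's rho of 0.753, again as a description.

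Among the 521 windows with 20 peaks or more, the part shared was highest at chr1:113000001-114000000 (14 of 20, 70.0%), chr1:155000001-156000000 (31 of 46, 67.4%) and chr1:145000001-146000000 (16 of 25, 64.0%). These were followed by chr16:30000001-31000000 (48 of 82, 58.5%) and chr1:149000001-150000000 (14 of 24, 58.3%). Thus 4 of the 5 lay on chromosome 1, and 3 of these between 145 and 156 Mb. The longest stretches without a peak were chr1:121261886-142690520 (21.4 Mb), chr9:47165406-65576361 (18.4 Mb), chr16:34808614-46657638 (11.8 Mb), chr6:57181832-64122439 (6.94 Mb) and chr11:50234943-57045420 (6.81 Mb). The other guides together had 0 to 2 peaks in each of these 5 stretches, which span centromeres.

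sgRNA6 peaks were concentrated toward chromosome ends, and the highest unshared peaks most of all. Within 5 Mb of an end lay 6706 peaks (19.95%, 19.5 to 20.4), where 7.66% of the length lies. The share was 21.7% for unshared and 15.4% for shared peaks. Put the other way, 20.9% of peaks within 5 Mb of an end were shared and 28.7% of those elsewhere. In the highest 1% of the list, 68 of 162 unshared peaks (42.0%, 34.3 to 49.97) but 21 of 174 shared peaks (12.1%, 7.63 to 17.9) lay within 5 Mb of an end. With a 50% reciprocal overlap the share of shared peaks was 6.52%. Within 1 Mb the corresponding counts were 25 (15.4%) and 5 (2.87%).

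For unshared peaks this concentration fell from the highest 1% to 27.7% in the next 1% and 20.4% in the following 3%, and lay between 20.1 and 22.9% in the second to the lowest decile. The contrast did not hold in the highest 20, where 10 of 17 unshared and all 3 shared peaks lay near an end. For shared peaks it rose toward lower scores, from 11.3% in the highest decile to 21.2% in the ninth and 19.3% in the lowest, where the 2 sets had overlapping intervals. The sgRNA4 list held a similar contrast in its highest 1%, with 32 of 68 unshared peaks (47.1%) and 10 of 69 shared peaks (14.5%). In the sgRNA5 list only 8 peaks of the highest 1% were unshared, of which 4 lay within 5 Mb of an end. Counting the whole list, 19.6% of sgRNA4 and 12.9% of sgRNA5 peaks did so.

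**Figure D5:**
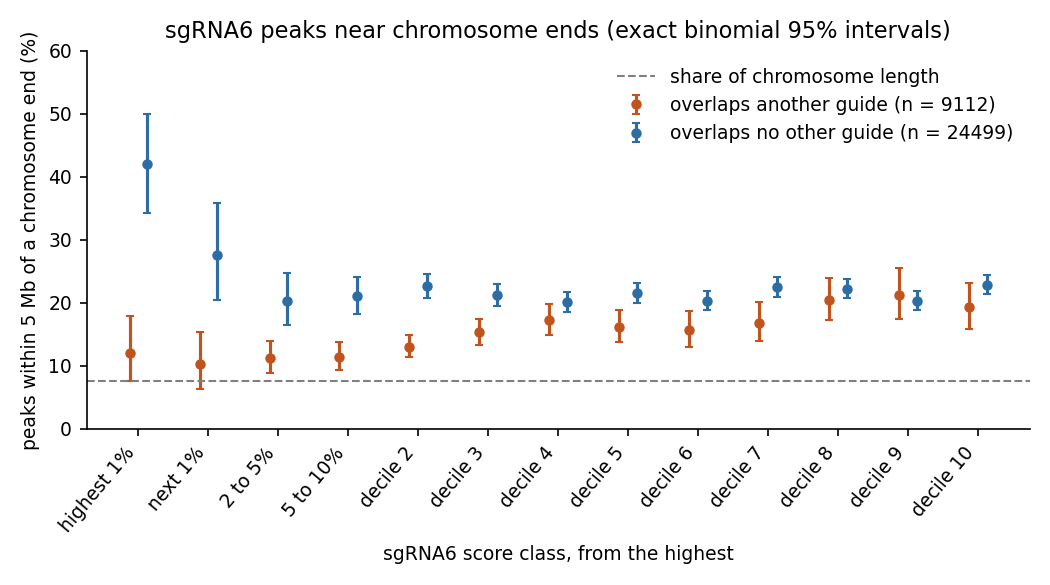
Share of sgRNA6 peaks within 5 Mb of a chromosome end (vertical axis, percent) by score class (horizontal axis, from the highest), for peaks that overlap another guide and those that do not; bars are exact binomial 95% intervals and the dashed line is the 7.66% of length in these stretches. In the highest 1% the unshared peaks stand at 42.0% and the shared peaks at 12.1%, whereas in the lowest decile the sets are at 22.9 and 19.3%.

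Chromosome Y held 36 sgRNA6 peaks, all unshared at the positions listed and all between positions 12770 and 2601276. This is the pseudoautosomal stretch at the start of the chromosome, whose sequence X and Y have in common, so that a read from it cannot be assigned to either. In a comparison chosen after the positions were seen, 21 of the 36 had an X peak whose centre lay 50 kb further on, within 500 bp, with a median shift of 50012 bp. These fell on 20 X peaks. The X peaks paired with the Y peaks at 98268 and 1522799 were themselves shared with another guide. The scores of paired peaks had medians of 134.5 on Y and 131.9 on X, and Y was higher in 11 pairs and X in 10. The pair of highest score was chrY:1266090-1267549 (2762) with chrX:1316082-1317525 (2357), so these 2 of the 20 highest peaks cannot be told apart from 1 site listed on both chromosomes. The lists of sgRNA4 and sgRNA5 held 5 and 1 peaks on Y, and those of sgRNA1 to sgRNA3 held 0.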

How the data were processed

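Peak lists of 9 chromatin immunoprecipitation libraries were used, 1 with sgRNA6 and 8 with the other guides. The 3 other samples described (dCas9 without a guide and amplicon sequencing) were not analysed here. Per the submitters' processing notes, Bowtie, Bowtie2 and MACS were used with hg19. No source used here gives their roles, versions or settings. Each deposited list holds a position and a score per peak, the authors' own value of unstated unit, and it gives no read counts. Peaks were deposited per library, not pooled.

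Positions were read as BED intervals and printed from 1. A peak was shared if at least 1 bp lay under a peak of any library of another guide. Spacing was measured from edge to edge. Chromosome length was measured from the first position to the last peak listed for any guide, unassembled stretches included, and windows were 1 Mb. Deciles are 10 classes of the list by score, with ties in genome order. Intervals are Clopper-Pearson at 95% and cover counting error only, since reads are not independent molecules and the depth is unknown. No test was run, as sgRNA6 has 1 library. Computation used Python 3.11.15, pandas 2.3.3, numpy 2.4.6 and scipy 1.17.1. Overlap and distance code was tested on simulated data. Regions were named by rule: the 20 highest peaks (ties by width), the 10 highest shared, the 10 highest shared with all 5 other guides, the 5 widest, the 5 windows with most peaks, the 5 with the highest part shared among those with 20 or more, and the 5 longest stretches without a peak. The comparison of X and Y fell outside this rule. Members and regions were chosen with earlier results of these data known. Alternatives were the overlap rule, the higher-scored 50%, merging within 1000 bp and leaving out lists.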

Additional observations from a re-analysis of the deposited data

How the results depend on the processing

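The sgRNA6 list has no replicate and no known depth, and the library without a guide was not analysed here, so weak peaks could not be set against background and list lengths cannot be set against depth. The far end of each chromosome was taken as its last listed peak and the near end as its first position. Unassembled stretches at an end were therefore counted in the length set beside the share of peaks near ends. No paired analysis was possible because sgRNA6 is 1 library. The part shared, 27.1%, became 20.4% with 50% reciprocal overlap, 24.3% with centres within 500 bp, 26.3% with the higher-scored 50% of each list, 27.6% with sgRNA6 peaks within 1000 bp merged, 15.7% without sgRNA4 and 21.4% without sgRNA5; leaving out a replicate of sgRNA1 to sgRNA3 gave 26.5 to 27.1%. The difference in median score, 49.0, became 61.1 with merging and 60.8 without sgRNA4. The difference in width, 230 bp, became 244 bp with the higher-scored 50%, 389 bp with merging and 247 bp without sgRNA4. The difference in nearest distance, -1704.5 bp, was -499 bp with centres within 500 bp and turned to 255.5 bp with reciprocal overlap, 2713 bp with the higher-scored 50%, 2482 bp with merging and 1380 bp without sgRNA4. The part of the highest 1% that was shared, 51.8%, became 41.1% with reciprocal overlap, 46.1% by centres, 40.8% without sgRNA4 and 45.2% without sgRNA5. With the higher-scored 50% it was 32.7%. There the highest 1% was taken of the shortened list, so the class itself held fewer and higher-scored peaks. The part within 10 kb of a neighbour, 56.0%, became 38.0% with the higher-scored 50%, 45.4% with merging, 57.9% by covered bases and 91.8% at 100 kb. The part within 5 Mb of an end, 19.95%, became 18.8% with the higher-scored 50%, 19.5% with merging and 4.53% within 1 Mb. The density on chromosome 19 in the whole list (3.47 times the mean) moved under none of its alternatives by more than its counting interval. Split, it was 3.73 for shared and 3.38 for unshared peaks, unchanged with chromosomes ending at the last sgRNA6 peak. The values became 3.76 and 3.22 with merging, but 3.25 and 3.48 with the higher-scored 50%. By covered bases the sets were level, each at 3.49. In alternatives chosen after seeing the data, the part of the highest 1% of unshared peaks near an end fell from 42.0 to 23.8% when the highest 10% was taken, and that of shared peaks from 12.1 to 6.52% with reciprocal overlap. Causes were not tested. Of 103 alternative values over 17 results, 4 changed sign and 41 moved beyond the counting interval.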

Other observations

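Among windows of 1 Mb with 20 or more sgRNA6 peaks, the lowest part shared was 0, a class of window chosen after the values were seen. It was found at chr6:168000001-169000000 (34 peaks), chr12:131000001-132000000 (27), chr18:77000001-78000000 (24), chr20:57000001-58000000 (23) and chr20:46000001-47000000 (21). The other guides had 4 to 10 peaks in each of these 5 windows, so that both kinds of peak were present without sharing a base. In the shared stretch at the start of chromosome X, 31 sgRNA6 peaks gave 11.7 per Mb, against 5.63 per Mb on the rest of X, and 2 of the 31 were shared with another guide.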
